A study of Mus musculus with 12 samples.

Results

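A set of 69 genes had more RNA per cell in paused than in growing wild-type mouse embryonic stem cells, against a background in which most RNAs were lower. The members were chosen from the log2 values that the authors deposited as normalized to cell number. A member's mean in paused wild-type cells exceeded its mean in growing wild-type cells by 1 or more on the log2 scale, its lowest paused value lay above its highest growing value, and its mean raw count over the paused wild-type libraries was 30 or more. Symbols of predicted or clone-named genes (starting Gm or ending Rik) were dropped. Of 14494 genes in both deposited tables, 11623 reached the mean count, 181 of these did not overlap between the groups in the upward direction, 82 also reached the difference of 1, and 69 were left after 13 Gm or Rik symbols were dropped. The rule selected 0.626% of the 11029 named genes with enough counts. The differences between paused and growing wild-type cells chose the members, so they are described here without a test.

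All cells were of the E14 line of mouse embryonic stem cells, grown on gelatin in medium with fetal bovine serum (FBS) and the cytokine LIF. Of 2 genotypes, one was wild type (WT) and the other a Mettl3 knockout (KO). Mettl3 is the active enzyme of the complex that writes N6-methyladenosine into messenger RNA. Growing cells (FBS) received no inhibitor, and paused cells received INK128, an mTOR kinase inhibitor, at 200 nM for 2 weeks. The 4 groups, WT FBS, WT paused, KO FBS and KO paused, had 3 polyadenylated RNA libraries each. The labels do not say whether the KO cells were 1 clone, or whether replicates were separate cultures, so p-values measure the spread between these libraries, which may be technical.

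mTOR couples nutrients and growth factors to protein synthesis and cell growth. Its inhibition brings embryonic stem cells into a reversible dormant state that resembles embryonic diapause, in which transcription and translation are low while pluripotency is kept. RNA was extracted from equal cell numbers and synthetic ERCC RNAs were added to the extracted RNA, so counts relative to ERCC counts were read as RNA per cell. In bulk RNA, more transcript in each cell and a larger share of cells expressing a gene cannot be told apart.

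Libraries held 10615548 to 39566713 counts. The median gene was lower in WT paused than in WT FBS cells by 1.04 on the deposited log2 scale (a difference of -1.04), and 6.71% of the 14494 genes had a mean difference above 0. Total gene counts per ERCC count, on the log2 scale, differed by -1.16 ± 0.11 (SE, n = 3 against 3) between paused and growing WT cells and by -0.78 ± 0.29 in KO cells. The exact two-sided permutation p was 0.1 for each, the smallest that 3 against 3 allows. WT FBS replicate 1 stood apart from the other two: 1197 genes differed over 2-fold from both, against 201 and 172 for replicates 2 and 3. It was the lowest of the 3 WT FBS libraries for 37 members and the highest for 22. Without it the rule gave 100 genes, 53 of them among the 69. Mettl3 itself was at 31.2 to 39.1 CPM (counts scaled to the size of the library) in WT and 25.5 to 31.4 in KO libraries. The labels do not say which part of the gene was deleted, so this level does not check the genotype. The 4 Y-linked genes examined had 0 to 7 counts per WT library and 593 to 3124 per KO library, so genotype and presence of Y-linked RNA cannot be told apart in any comparison of KO with WT.

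Promoter sequences are shown for 3 members picked after their values were seen. Sox1 and Trim67 rose with pausing in KO cells as well, whereas Ube2ql1 fell there. Each sequence is the RefSeq window from 250 bases before to 50 bases after the gene's start on GRCm38.p6, written 5′ to 3′ on the gene's strand. Capitals mark a matched motif.
Sox1, chr8:12395269-12395568, plus strand: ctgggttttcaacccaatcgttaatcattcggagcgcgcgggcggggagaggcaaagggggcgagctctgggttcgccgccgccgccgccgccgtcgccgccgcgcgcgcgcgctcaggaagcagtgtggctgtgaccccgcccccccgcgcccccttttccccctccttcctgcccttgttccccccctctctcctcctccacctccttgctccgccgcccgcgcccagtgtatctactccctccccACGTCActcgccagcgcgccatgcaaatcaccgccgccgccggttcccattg
Trim67, chr8:124792769-124793068, plus strand: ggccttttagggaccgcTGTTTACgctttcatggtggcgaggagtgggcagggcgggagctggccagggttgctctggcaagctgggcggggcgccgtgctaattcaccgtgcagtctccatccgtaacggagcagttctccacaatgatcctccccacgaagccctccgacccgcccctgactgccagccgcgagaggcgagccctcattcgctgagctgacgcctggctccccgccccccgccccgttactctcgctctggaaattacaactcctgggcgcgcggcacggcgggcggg
Ube2ql1, chr13:69739848-69740147, minus strand: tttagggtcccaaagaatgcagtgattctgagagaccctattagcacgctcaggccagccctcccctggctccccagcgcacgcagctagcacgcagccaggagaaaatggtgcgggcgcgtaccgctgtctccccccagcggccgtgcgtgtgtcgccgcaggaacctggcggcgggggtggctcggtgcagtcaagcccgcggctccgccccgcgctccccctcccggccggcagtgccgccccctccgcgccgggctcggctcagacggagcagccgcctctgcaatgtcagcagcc
The capitals in Sox1 are the opposite-strand form of the cAMP response motif TGACGT, which 7.51% of all 32851 RefSeq mouse promoters of this length hold on either strand. Those in Trim67 are the opposite-strand form of the FoxO motif GTAAACA, held by 3.65%. FoxO factors are restrained by the kinase Akt downstream of mTOR complex 2. None of the 6 motifs searched was found in the Ube2ql1 window. The searches covered both strands and also included the E-box CACGTG, its longer TFEB and TFE3 form TCACGTG, which contains the E-box, the AP-1 motif TGANTCA and the Tcf/Lef motif CTTTGAT. A RefSeq window was matched for 55 of the 69 members, which is 79.7% and under the 80% needed for a summary of promoter composition over the set, so none is given. Among the 55, Trim67 alone held the FoxO motif, which is 1.82% of members beside 2.47% of the 9293 tested genes with a matched window. Sox1 alone held the cAMP response motif, which is 1.82% of members beside 12.4% of those tested genes. Gucy1a2, Adamts17, En1 and Pgpep1l held the E-box (7.15% of all promoters), and Gucy1a2 and En1 also its longer form (3.77%). These are 7.27% and 3.64% of members, beside 10.9% and 6.64% of those tested genes. Notch4, En1 and Itga9 held the AP-1 motif (7.81%), which is 5.45% of members beside 4.08% of those tested genes. Bpifb5 held the Tcf/Lef motif (3.73%), which is 1.82% beside 2.36%. Of the 14 members with a window that rose per cell in KO cells, only Sox1, Trim67 and Itga9 held any of the 6 motifs. Pgpep1l, which fell there, held the E-box. A link between motifs and the change with pausing was not tested. The nearest RefSeq window on the gene's strand was taken, at any distance. For Itga9 it starts at base 118711442 of chromosome 9, inside the gene, whose annotated start is 118606690. The windows of Bach2, Tenm1, Smyd1, Fat2, Nphs1 and Syndig1, among others, also lie inside their genes, away from the annotated start.

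The members' differences between paused and growing WT cells had a median of 1.46 on the deposited log2 scale and ran from 1.02 to 3.65. They reached 2 or more for 12 members and 1.5 or more for 29. The highest belonged to Cdh13 (T-cadherin, a cadherin held in the membrane by a lipid anchor) at 3.65, the E3 ubiquitin ligase Trim67 at 3.10, the exchange factor Dock10 at 3.09, the membrane aminopeptidase Xpnpep2 at 3.04 and the polysialyltransferase St8sia2 at 2.90. Pard3b at 2.70, Hoxc12 at 2.67, Nalcn at 2.60, Tenm1 at 2.42, Lrrn2 at 2.25, Klhdc7a at 2.02 and Tmem132d at 2.01 completed the 12 highest. Tenm1 and Cdh13 had 0 counts in WT FBS replicate 1, where the deposited value (-4.07) rests on the offset of 0.5. Their WT per-cell changes fitted by edgeR were 1.68 and 3.42. The same fit put Platr22 (0.93), Apln (0.94), En1 (0.96) and Wls (0.96) below 1. Just inside the threshold were Wls at 1.015, Igfbp7 at 1.025, Sox21 at 1.029 and Col11a1 at 1.035. Just outside it were Dnah7a at 0.990, Rsph4a at 0.985, Dzip1 at 0.981 and Fndc1 at 0.955, and Dnah7a and Rsph4a encode parts of motile cilia.

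**Figure D1:**
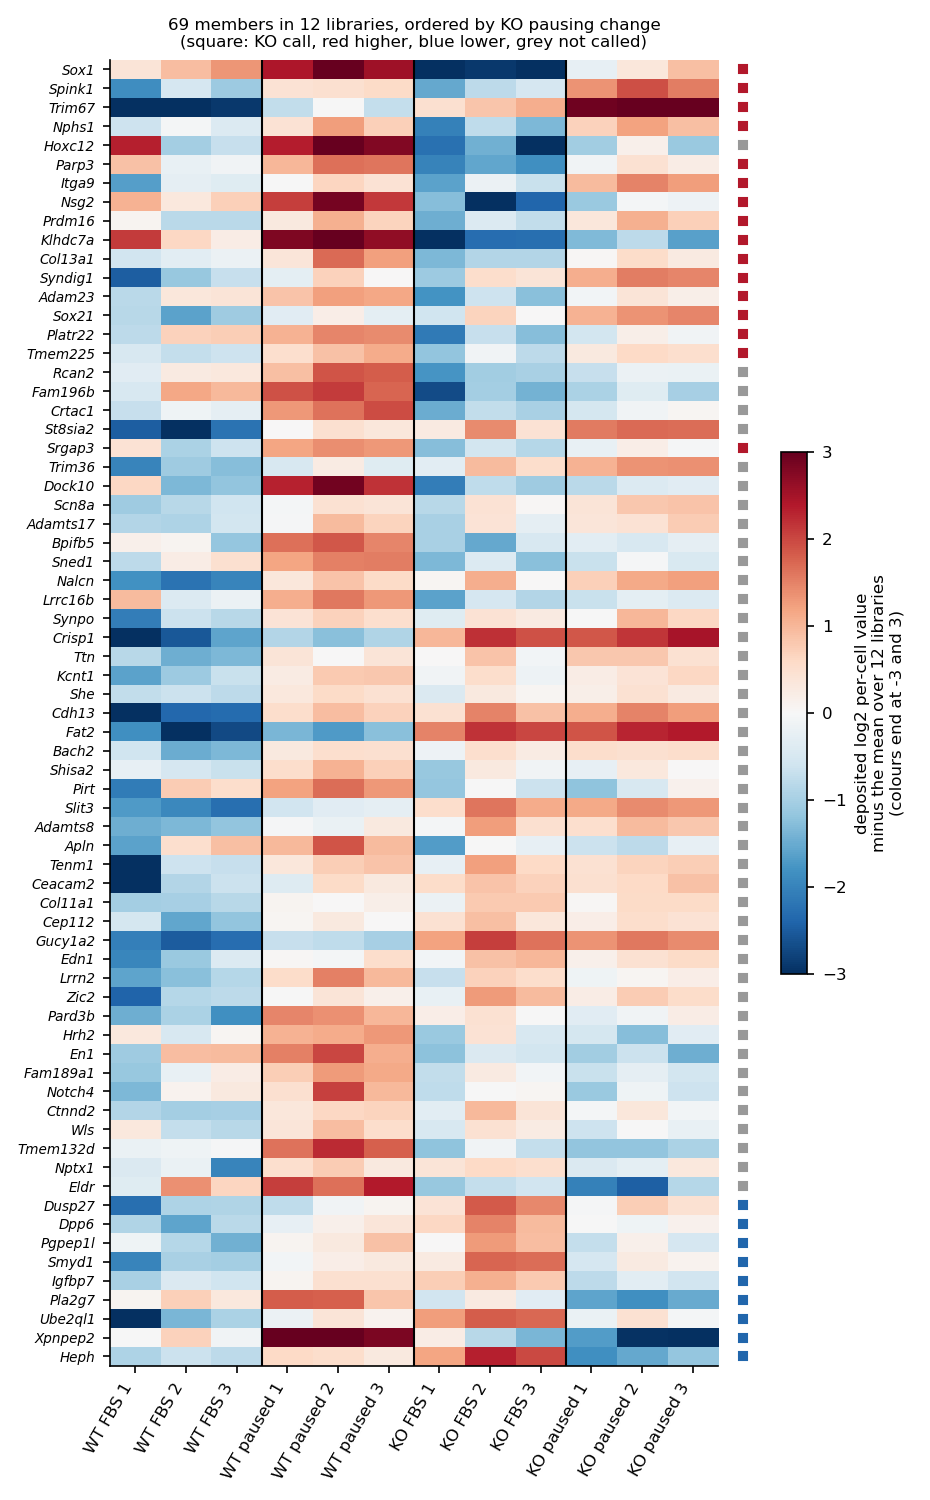
Heat map of the 69 members (rows) in the 12 libraries (columns, grouped by genotype and condition). Colour is the deposited log2 per-cell value minus the member's mean over the 12 libraries, rows are ordered by the pausing change in KO cells, and the square at the right gives the KO call (16 higher, 9 lower, 44 not called). The WT paused columns are redder than the WT FBS columns in every row because of the rule, whereas the KO columns differ from row to row.

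Levels below are counts per 10000 ERCC counts, with the ERCC total adjusted by TMM factors, and are called spike-scaled counts. They depend on transcript length, so they compare libraries for 1 gene and not genes with each other. On this scale, which differs slightly from the deposited one, 8 members (Hoxc12, Notch4, Apln, En1, Parp3, Lrrc16b, Dusp27 and Wls) had a highest WT FBS library at or above their lowest WT paused library. For Parp3, for example, the highest WT FBS value was 4.55 and the lowest WT paused value 4.41. The summed members stood at 303 to 376 spike-scaled counts in WT FBS libraries and 712 to 992 in WT paused libraries. In KO cells they stood at 497 to 947 when growing and 819 to 957 when paused, and only KO FBS replicate 2, at 947, reached the paused range. As a share of gene counts, members took 0.0447 to 0.0476% in WT FBS, 0.255 to 0.261% in WT paused, 0.0929 to 0.105% in KO FBS and 0.217 to 0.233% in KO paused libraries. The giant muscle gene Ttn alone supplied 24.4 to 49.2% of the members' counts.

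The comparison of paused with growing KO cells takes its fold changes from KO libraries, which did not enter the rule, while the WT libraries that chose the members share the estimate of the spread. With only the 6 KO libraries fitted, 15 members rose and 9 fell per cell. On the per-cell scale, edgeR's quasi-likelihood test with Benjamini-Hochberg adjustment called 16 of the 69 members higher in KO paused than in KO FBS cells (23.2%), beside 2.45% of all 15281 genes tested. It called 9 members lower (13%), beside 45.7% of all genes, and 44 passed in neither direction. The members' median log2 change was 0.21, with quartiles of -0.37 and 0.79, beside a median of -0.72 and quartiles of -1.09 and -0.33 over all genes tested. A change above 0 was found for 41 members and for 13% of all genes, and a change of 1 or more for 16 members and 1.94% of all genes. On the relative scale, which measures each gene against the typical gene and does not use ERCC, 40 members were called higher (58%, beside 23.3% of all genes) and 4 lower (5.8%, beside 19.4%). The members' median was then 0.94, beside 0.03. All 16 members that were higher per cell were also higher on the relative scale, and 24 more were higher on the relative scale only. These 24 are genes whose change per cell did not pass while the typical gene had less RNA per cell. By the deposited values, every KO paused library lay above every KO FBS library for 22 members (3.66% of the 14494 genes did so) and below for 8 (31.7%), and the groups overlapped for 39. All 69 members passed the filter on low counts, 65 of them also with the WT paused libraries left out. Xpnpep2, which is among the 9 called lower, was not among the 65. No set test was made, and the shares are given as a description.

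**Figure D2:**
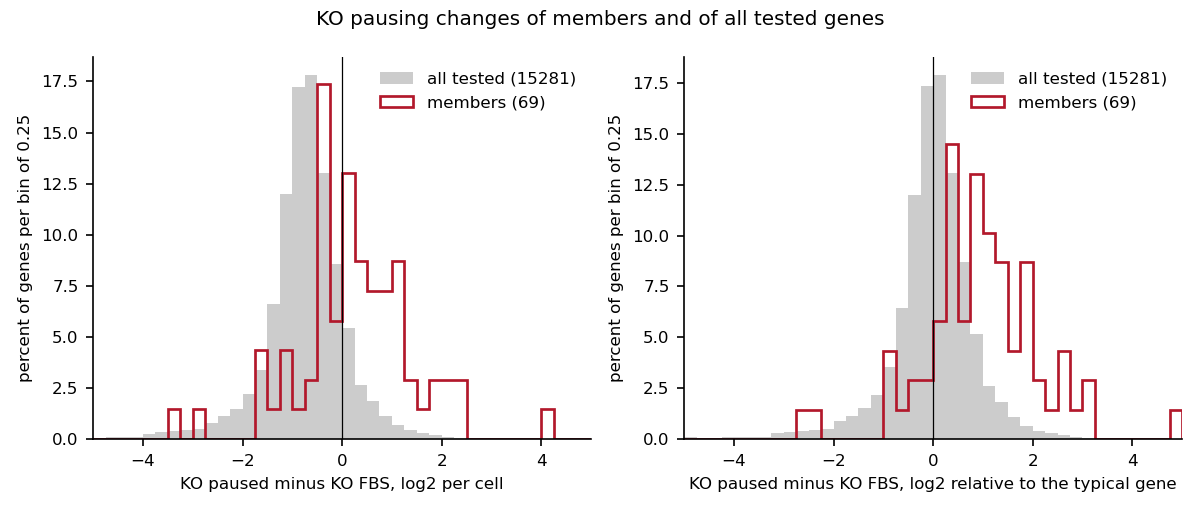
Distribution of the log2 change between KO paused and KO FBS cells, per cell at the left and relative to the typical gene at the right, for the 69 members (red outline) and all 15281 genes tested (grey). The height is the percent of genes per bin of 0.25. The members' medians are 0.21 and 0.94, those of all genes -0.72 and 0.03.

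**Figure D3:**
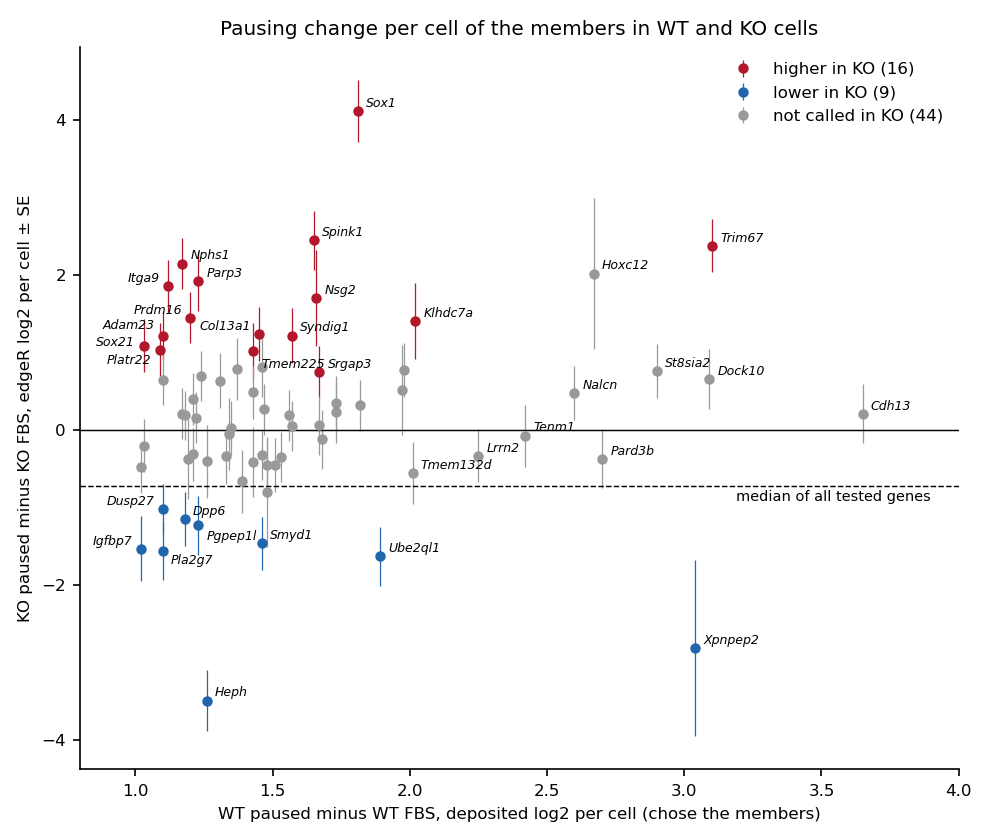
Pausing change per cell of each member in WT cells (horizontal, deposited log2 difference, the value that chose the members) and in KO cells (vertical, edgeR log2 change ± SE). Red points are the 16 members called higher in KO cells and blue points the 9 called lower. The horizontal axis therefore starts near 1, and the dashed line marks the median of all tested genes in KO cells, -0.72.

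The members were sorted by known role after their values had been seen, so counts within a role are descriptions. These counts stand beside 2.45% of all genes tested called higher and 45.7% called lower per cell, with a median of -0.72. Where a role is said to hold none that rose or none that fell, no member had an unadjusted edgeR p under 0.05 in that direction and DESeq2 called none, apart from Rcan2 below. Transcription and chromatin factors were 7, of which Sox1, Prdm16 and Sox21 rose per cell in KO cells, none fell and 4 were not called (median 1.09). Sox1, a SoxB1 factor of neural progenitors, stood at 8.17, 10.3 and 16.5 spike-scaled counts in WT FBS replicates 1 to 3, and at 29.9, 56.5 and 34.9 in WT paused replicates. In KO FBS libraries it was nearly absent, at 0.247, 0.821 and 0.309, and in KO paused libraries it stood at 5.06, 7.12 and 10.5. Every paused library lay above every growing library within each genotype, and the KO paused values overlapped the WT FBS range and lay below the WT paused range. Its KO change was 4.12 ± 0.40 on the log2 scale (SE, adjusted p = 2.05e-22, edgeR), the highest of the members, and 4.76 without KO FBS replicate 2.

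Prdm16, a zinc finger protein with a methyltransferase domain known from brown fat and blood stem cells, was at 11.5, 5.51 and 6.59 in WT FBS and 12, 24.2 and 17 in WT paused libraries. It was at 4.16, 8.28 and 6.05 in KO FBS and 13.3, 20.9 and 16.3 in KO paused libraries. The KO groups did not overlap, and the change was 1.45 ± 0.33 (adjusted p = 0.000121). Sox21, a SoxB2 factor that counteracts SoxB1 proteins, was at 2.83, 1.44 and 2.54 in WT FBS, 3.59, 6.08 and 3.96 in WT paused, 3.48, 8 and 4.68 in KO FBS, and 10, 11.7 and 12.6 in KO paused libraries. Its KO change was 1.09 ± 0.34 (adjusted p = 0.00471). An antisense long noncoding RNA overlaps 18.8% of its exon bases, and reads of both cannot be told apart if strand was not used in counting.

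The remaining factors were not called per cell in KO cells. Zic2, a zinc finger factor of formative pluripotency and neural tissue, was the member with the highest level per length, at 44.5 ± 2.11 CPM per kb of exon (SD, n = 3) in WT paused cells. It was at 7.06, 18.2 and 22.8 spike-scaled counts in WT FBS and 33.1, 51.4 and 40.3 in WT paused libraries. In KO cells the growing libraries, at 33.4, 89.9 and 66.6, already lay within or above the WT paused range, and the paused ones, at 41.7, 57.2 and 49.6, overlapped them (-0.35 ± 0.32, adjusted p = 0.338, and -0.66 with adjusted p = 0.0316 without KO FBS replicate 1). Bach2, a repressor best known from lymphocytes, had means of 4.82 in WT FBS, 13.6 in WT paused, 12 in growing and 13.7 in paused KO cells. En1, a homeobox factor of the midbrain and hindbrain boundary, had means of 0.792, 1.69, 0.337 and 0.255 in the same order of groups, so neither KO mean reached the WT FBS mean. Hoxc12, a posterior homeobox gene, had only 13 counts over the KO paused and 2 over the KO FBS libraries, a ratio of 4.51 with a 95% interval of 1.02 to 41.2 that covers counting error only. In WT cells Hoxc12 was at 0.676, 0.052 and 0.0784 when growing and 0.626, 1.67 and 0.912 when paused.

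**Figure D4:**
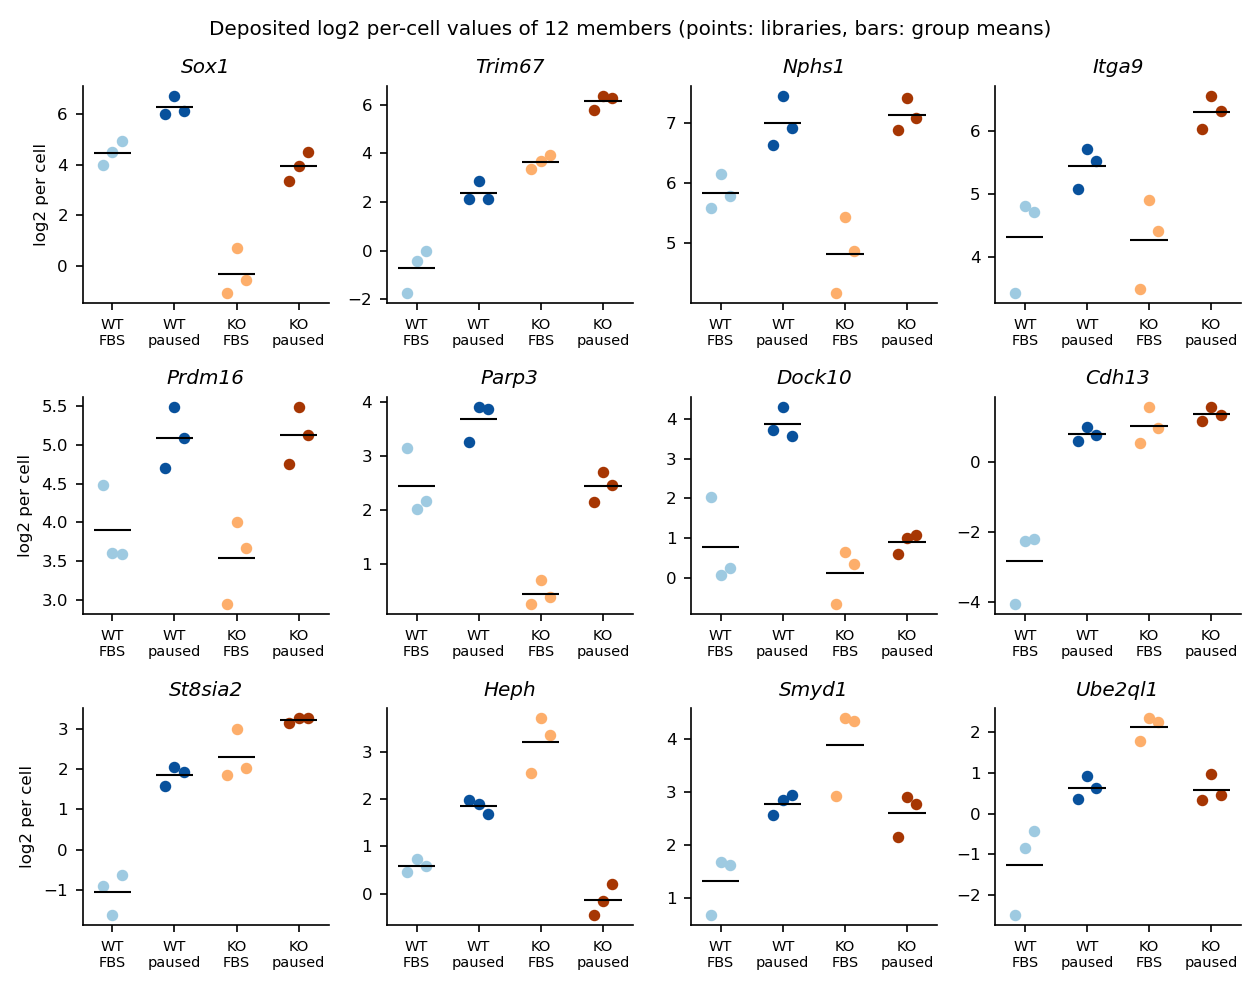
Deposited log2 per-cell values of 12 members in the 4 groups. Points are the 3 libraries of a group and bars their means. Sox1, Trim67, Nphs1, Itga9, Prdm16 and Parp3 are higher in paused than in growing cells of both genotypes, Dock10, Cdh13 and St8sia2 were not called in KO cells, and Heph, Smyd1 and Ube2ql1 are lower in paused KO cells.

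Proteins of neuronal adhesion, axon guidance and the synapse were 11 members by the sorting into roles, with no share over all genes counted. By list, 2 of 51 tested neuronal and synaptic adhesion genes and 1 of 66 tested axon guidance genes were members. Of the 11, Nsg2, Syndig1, Adam23 and Srgap3 rose per cell in KO cells, none fell and 7 were not called (median 0.21). Adam23, a membrane protein of the disintegrin family that binds the secreted neuronal protein LGI1, was at 23.2, 45.2 and 56.1 in WT FBS and 65.5, 99.6 and 87.4 in WT paused libraries. It was at 12.2, 26.3 and 15.5 in KO FBS and 36.8, 47.8 and 41.5 in KO paused libraries, again without overlap (1.22 ± 0.32, adjusted p = 0.000873). Syndig1, which associates with AMPA receptors at synapses, was at 0.741, 2.19 and 1.85 in KO FBS and 3.13, 4.01 and 3.85 in KO paused libraries (1.22 ± 0.36, adjusted p = 0.00318). Both kept their call without any 1 KO library.

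Nsg2, a neuronal protein of endosomes, had 38 counts over the KO paused and 8 over the KO FBS libraries, a ratio of 3.3 with a 95% counting interval of 1.52 to 8.19. It no longer passed (adjusted p = 0.0175 with all libraries) once growing KO replicate 2 or 3 or paused KO replicate 2 or 3 was left out (adjusted p = 0.0563 to 0.0998), and its log2 change was 2.88 without KO FBS replicate 1. Srgap3, a GTPase-activating protein of the Slit and Robo pathway, was at 4.73, 7.49 and 5.59 in KO FBS and 8.98, 11.4 and 9.59 in KO paused libraries (0.75 ± 0.33, adjusted p = 0.0467). It did not pass with growing KO replicate 1 or 3 or any paused KO replicate left out (adjusted p = 0.0653 to 0.152).

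Cdh13 had the highest WT difference and no call in KO cells. It had 0, 0.0867 and 0.105 spike-scaled counts in WT FBS libraries, 9 counts in all 3 together, and 0.698, 1.07 and 0.852 in WT paused libraries. KO FBS libraries were at 0.782, 1.54 and 0.927 and KO paused libraries at 1.13, 1.4 and 1.18, so growing KO and paused WT libraries overlapped (KO change 0.21 ± 0.38, adjusted p = 0.644). St8sia2, which builds polysialic acid on NCAM, had the same order of group means, with 0.246, 0.139 and 0.34 in WT FBS, 1.37, 2.22 and 1.88 in WT paused, 1.93, 4.07 and 1.92 in KO FBS and 4.37, 4.49 and 4.46 in KO paused libraries. The KO groups of St8sia2 did not overlap, but the change of 0.76 ± 0.35 missed the threshold (adjusted p = 0.057). Without KO FBS replicate 2 it was 1.20 (adjusted p = 0.00541), and without WT FBS replicate 1 it was 0.77 (adjusted p = 0.0399). Slit3, a secreted guidance ligand of Robo receptors, had means of 2.03 in growing and 6.01 in paused WT cells and of 17.5 and 18.2 in growing and paused KO cells (0.05 ± 0.32). Tenm1, an X-linked teneurin, had means of 0.197, 0.758, 0.76 and 0.705, and Lrrn2, a leucine-rich repeat membrane protein, of 1.6, 7.81, 4.51 and 3.57 in the same order. An opposite-strand gene, Sh2d1a, overlaps 8.25% of the exon bases of Tenm1. The adhesion and junction protein Ctnnd2 (KO change -0.45) and the synaptic pentraxin Nptx1 (-0.66) were not called either.

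The ion channels and their partners were 5 members, of which none rose, Dpp6 fell and 4 were not called per cell in KO cells (median 0.24). Nalcn, the sodium leak channel that sets resting excitability, was at 0.369, 0.26 and 0.366 in WT FBS and 1.59, 2.67 and 2.03 in WT paused libraries. KO FBS libraries were at 1.52, 2.98 and 1.3 and KO paused at 2.22, 2.78 and 3, which overlapped (0.48 ± 0.35, adjusted p = 0.241, and 0.92 with adjusted p = 0.044 without KO FBS replicate 2). Scn8a, a voltage-gated sodium channel, and Kcnt1, a potassium channel gated by sodium, had KO changes of 0.65 ± 0.33 and 0.24 ± 0.40, without a call. Without KO FBS replicate 2 Scn8a was at 0.97 (adjusted p = 0.0196). Pirt, a membrane partner of the heat receptor TRPV1, was at 0.06 ± 0.38. Dpp6, an auxiliary subunit of Kv4 potassium channels, was at 1.29, 0.711 and 1.46 in WT FBS and 1.83, 2.82 and 3.05 in WT paused libraries, and at 3.91, 6.81 and 4.37 in KO FBS and 2.32, 2.03 and 2.42 in KO paused libraries. Its KO change was -1.15 ± 0.35 (adjusted p = 0.00401), and the paused libraries of both genotypes overlapped while the growing ones did not. On the relative scale Nalcn, Scn8a and Kcnt1 were called higher.

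Proteins of the cytoskeleton, polarity and cell junctions were 8, of which Nphs1 and Itga9 rose per cell in KO cells, none fell and 6 were not called (median 0.38). Nphs1 encodes nephrin, the adhesion protein of the kidney filter, and was among the members with the highest level per length, at 30.6 CPM per kb in WT paused cells. It was at 24.8, 32.1 and 30 spike-scaled counts in WT FBS, 46.1, 94.8 and 60.4 in WT paused, 9.67, 22.2 and 13.8 in KO FBS and 59, 79.9 and 63.7 in KO paused libraries. Growing KO cells thus had less than any growing WT library, and the paused libraries of both genotypes overlapped (KO change 2.15 ± 0.33, adjusted p = 2.48e-09). An antisense transcript of Nphs1 overlaps 9.02% of its exon bases. Itga9, an integrin alpha chain, was at 5.53, 12.7 and 14.4 in WT FBS, 15.7, 28.5 and 23 in WT paused, 6.05, 15.4 and 10.1 in KO FBS and 32.6, 44.3 and 37.5 in KO paused libraries (1.86 ± 0.33, adjusted p = 3.59e-07). Growing cells of both genotypes overlapped for Itga9, and every KO paused library lay above every WT paused one.

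Dock10, an exchange factor for Cdc42 and Rac, stood at 2.09, 0.468 and 0.627 in WT FBS and 6.07, 10.6 and 5.95 in WT paused libraries. In KO cells it was at 0.329, 0.787 and 0.596 when growing and 0.741, 0.928 and 0.975 when paused (0.66 ± 0.39, adjusted p = 0.146). Every KO library lay below the lowest WT paused library. Pard3b, a polarity protein, had KO FBS values of 1.11, 1.27 and 0.839 and KO paused values of 0.704, 0.777 and 0.975, beside 2.29, 2.52 and 1.79 in WT paused libraries. Its change in KO cells was -0.37 ± 0.38. The giant protocadherin Fat2 had means of 0.851 in growing and 1.74 in paused WT cells, and of 18.3 and 20.8 in growing and paused KO cells (0.19 ± 0.32). The actin-associated protein Synpo (0.35), the actin-capping regulator Lrrc16b (0.40) and the adhesion protein Ceacam2 (-0.12) were not called.

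Extracellular matrix proteins, proteases and their inhibitors were 9, of which Spink1 and Col13a1 rose, Xpnpep2 and Igfbp7 fell and 5 were not called per cell in KO cells (median 0.49). Spink1, a secreted trypsin inhibitor, was at 0.369, 0.884 and 0.706 in WT FBS and 1.73, 2.11 and 2.08 in WT paused libraries. It was at 0.514, 0.821 and 0.927 in KO FBS and 3.52, 5.03 and 3.8 in KO paused libraries, so the growing groups overlapped and the KO paused group was the highest (2.45 ± 0.38, adjusted p = 4.11e-09). Col13a1, a transmembrane collagen, was at 1.3, 1.71 and 1.57 in KO FBS and 3.13, 4.23 and 3.46 in KO paused libraries (1.24 ± 0.35, adjusted p = 0.00224), beside WT means of 2.44 when growing and 7.2 when paused.

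Igfbp7, a secreted IGF-binding protein, was at 0.246, 0.347 and 0.366 in WT FBS and 0.506, 0.778 and 0.732 in WT paused libraries, and at 0.946, 1.13 and 0.861 in KO FBS and 0.296, 0.388 and 0.325 in KO paused libraries. The order of growing and paused cells was therefore opposite in the 2 genotypes, and the KO change was -1.53 ± 0.42 (adjusted p = 0.00144). Its exons overlap those of the opposite-strand gene Polr2b over 7.03% of their bases. Xpnpep2, on the X chromosome, was at 0.674, 1.33 and 0.628 in WT paused libraries. It had 7 counts over all KO FBS and 1 over all KO paused libraries, a ratio of 0.0992 with a 95% counting interval of 0.0022 to 0.772. No library outside the WT paused group had more than 7 counts of Xpnpep2. It therefore passed the count filter only through libraries that chose the members. The adjusted p of 0.0325 became 0.264 without growing KO replicate 1, 0.0875 without paused KO replicate 2 and 0.152 without paused KO replicate 3, and the fitted log2 change was -4.41 without KO paused replicate 1. Crtac1, a cartilage matrix protein, missed the threshold in KO cells at 0.78 ± 0.35 (adjusted p = 0.0554) and passed it at 0.95 without KO FBS replicate 2 (adjusted p = 0.0324) and at 0.78 without WT FBS replicate 1 (adjusted p = 0.0443), and DESeq2 called it (0.77, adjusted p = 0.0283). The protease Adamts17 stood at 0.64 and reached 1.05 without KO FBS replicate 2 (adjusted p = 0.0232). Adamts8 (0.03), Col11a1 (-0.20) and the matrix protein Sned1 (0.49) were not called.

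No ligand, receptor or signalling member passed per cell in KO cells: 0 of 9 were called by edgeR in either direction, 0 of 9 in the per-cell test of DESeq2, and the unadjusted edgeR p was under 0.05 for 1 (Rcan2, 0.82 ± 0.39). The median was -0.32, beside -0.72 for all genes tested, of which 2.45% were called higher and 45.7% lower. On the relative scale 4 of the 9 were called higher and 0 lower, beside 23.3% and 19.4% of all genes. Edn1, which encodes the vasoconstrictor endothelin, had means of 0.616 in WT FBS, 1.42 in WT paused, 2.01 in growing and 1.58 in paused KO cells. Apln encodes apelin, a peptide ligand, and had means of 0.537, 1.15, 0.314 and 0.289 in the same order. Notch4, a Notch receptor of endothelium, was at 3.19, 7.63 and 10.6 in WT FBS and 10.2, 35.1 and 15.3 in WT paused libraries, where replicate 2 was the high one, and had KO means of 6.92 when growing and 5.06 when paused. Gucy1a2, a subunit of the nitric oxide receptor guanylate cyclase, had means of 1.67 and 4.54 in WT and of 25.9 and 20.7 in KO cells. Wls, which carries Wnt proteins to the cell surface, had a KO change of -0.48 (-0.68 with adjusted p = 0.04 without KO FBS replicate 1). The histamine receptor Hrh2 (-0.37), Shisa2 (0.16), a regulator of Wnt and FGF receptor maturation, and the adaptor She (0.21) were not called.

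Of the ubiquitin enzymes, Trim67 rose, Ube2ql1 fell and Trim36 was not called per cell in KO cells. Trim67 was at 0.123, 0.329 and 0.523 in WT FBS and 2, 3.89 and 2.18 in WT paused libraries. It was at 5.47, 6.67 and 7.31 in KO FBS and 27.3, 38.6 and 35.7 in KO paused libraries, so growing KO libraries exceeded paused WT libraries, and in KO cells it rose with pausing by 2.38 ± 0.34 (adjusted p = 1.65e-10). Ube2ql1, an E2-like conjugating enzyme, was at 0.0614, 0.243 and 0.392 in WT FBS and 0.578, 1 and 0.762 in WT paused libraries, and at 1.83, 2.6 and 2.25 in KO FBS and 0.611, 0.906 and 0.637 in KO paused libraries. The paused libraries of both genotypes thus overlapped while the growing ones lay on opposite sides of them (KO change -1.63 ± 0.38, adjusted p = 0.000152). Trim36 was at 0.70 ± 0.32 (adjusted p = 0.0613), and at 1.02 without KO FBS replicate 2 (adjusted p = 0.00971).

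Among the muscle-associated members, Smyd1 and Dusp27 fell and Ttn was not called per cell in KO cells, where 45.7% of all genes tested were called lower. Smyd1, a methyltransferase of heart and skeletal muscle, was at 0.799, 1.44 and 1.67 in WT FBS and 2.72, 3.89 and 3.83 in WT paused libraries. It was at 4.09, 10.9 and 9.61 in KO FBS and 2.2, 3.52 and 3.17 in KO paused libraries, so growing KO cells had the highest levels (-1.46 ± 0.34, adjusted p = 0.000183). Dusp27, a phosphatase-like protein of muscle, had means of 7.07 in WT FBS, 14.4 in WT paused, 42.6 in growing and 21 in paused KO cells (-1.02 ± 0.32, adjusted p = 0.0059). The adjusted p was 0.0837 without growing KO replicate 2 and 0.0781 without paused KO replicate 1. Ttn, the sarcomeric spring titin, was at 132, 73.8 and 97.6 in WT FBS, 272, 244 and 294 in WT paused, 245, 422 and 204 in KO FBS and 390, 371 and 291 in KO paused libraries (0.27 ± 0.33), and its KO groups overlapped.

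All of the 4 other enzymes were called per cell in KO cells, Parp3 higher and the rest lower. Of all genes tested, 2.45% were called higher and 45.7% lower. Parp3, a DNA repair enzyme, was at 0.638, 0.821 and 0.618 in KO FBS and 2.2, 3.04 and 2.57 in KO paused libraries (1.92 ± 0.38, adjusted p = 5.55e-06), beside 4.41, 8.08 and 7.26 in WT paused libraries. Heph, the X-linked copper ferroxidase hephaestin that works with iron export, fell the most of the members by fitted change, at -3.49 ± 0.39 (adjusted p = 1.57e-16). It was at 0.676, 0.746 and 0.81 in WT FBS, 1.81, 2 and 1.58 in WT paused, 3.17, 6.77 and 4.88 in KO FBS and 0.352, 0.41 and 0.533 in KO paused libraries, so no 2 groups overlapped. Pla2g7, which hydrolyses platelet-activating factor, was at 2.46, 3.36 and 3.06 in WT FBS and 7.3, 8.49 and 3.97 in WT paused libraries, and at 1.63, 2.8 and 1.7 in KO FBS and 0.741, 0.582 and 0.728 in KO paused libraries (-1.56 ± 0.37, adjusted p = 0.00024). Pgpep1l, a pyroglutamyl-peptidase-like gene, had KO means of 1.57 when growing and 0.666 when paused (-1.23 ± 0.38, adjusted p = 0.00541), and the adjusted p was 0.0522 without growing KO replicate 2 and 0.0591 without paused KO replicate 1.

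The last 10 members are other or little-described genes, of which Klhdc7a, Platr22 and Tmem225 rose, none fell and 7 were not called per cell in KO cells (median 0.42). Klhdc7a, a kelch-domain gene, was at 4.61, 1.46 and 1.33 in WT FBS and 6.81, 12.9 and 6.68 in WT paused libraries, but only at 0.0823, 0.205 and 0.199 in KO FBS and 0.408, 0.561 and 0.312 in KO paused libraries. Its KO change of 1.41 ± 0.49 (adjusted p = 0.012) did not pass without growing KO replicate 1 (adjusted p = 0.0537) or paused KO replicate 2 (adjusted p = 0.0719). Platr22, a pluripotency-associated noncoding transcript, had KO means of 2.16 and 4.39 (1.04 ± 0.34, adjusted p = 0.00906), and did not pass without growing KO replicate 3 (adjusted p = 0.0551) or paused KO replicate 2 (adjusted p = 0.0655). Tmem225 had KO means of 1.38 and 2.77 (1.02 ± 0.36, adjusted p = 0.0136), and did not pass without the same libraries (adjusted p = 0.0855 and 0.05). Crisp1, a secreted protein known from the epididymis, had means of 0.331 in growing and 0.901 in paused WT cells and of 6.34 and 7.88 in KO cells. Tmem132d, with means of 1.03 and 4.24 in WT and 0.738 and 0.489 in KO cells, showed no call (-0.55 ± 0.40). The noncoding RNA Eldr had 12 counts over KO FBS and 10 over KO paused libraries, a ratio of 0.579 with a 95% counting interval of 0.224 to 1.46. Fam196b was at 0.79 (1.14 with adjusted p = 0.029 without KO FBS replicate 2), and Bpifb5 (0.52), Fam189a1 (-0.41) and Cep112 (-0.31), a centrosomal protein, were not called.

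Genotype differences share the libraries that chose the members and are given as values only. In growing cells the KO mean exceeded the WT mean for 41 members, and every KO library lay above every WT library for 33 (17.1% of the 14494 genes did so) and below for 12 (12.8%). The median difference was 0.70 on the deposited log2 scale, beside -0.01 for all genes. For 11 members, beside 58.7% of all genes, every growing KO library exceeded every paused WT library, as for Trim67, Fat2, Gucy1a2 and Crisp1, whose KO minus WT differences in growing cells were 4.40, 4.52, 3.91 and 4.52. The opposite extreme was Sox1 (-4.79), followed by Klhdc7a (-3.70) and Nsg2 (-3.30). In paused cells the KO mean exceeded the WT mean for 25 members, every KO library lay above every WT library for 14 (49.4% of all genes) and below for 31 (9.18%), and the median difference was -0.48, beside 0.48 for all genes. The low extreme there was Xpnpep2, with 1 count over the paused KO libraries, and Klhdc7a (-4.24), Eldr (-3.81) and Hoxc12 (-3.55) came next. The high extreme was Trim67 (3.77), with Fat2 (3.64) and Crisp1 (3.17) next.

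The families to which members belong had medians below 0 per cell in KO paused cells, as had all genes tested, and most genes of the lists on channels, adhesion, guidance and sialyltransferases were not called. In each list the share called lower was below the 45.7% of all genes, and 2.45% of all genes were called higher. Of 62 voltage-gated and leak ion channels tested, 5 rose and 16 fell per cell (median -0.54). Kcna3 (2.69 ± 0.40), Kcna2, Kcnh1, Cacna1a and Cacna2d2 rose, none of them a member, while the 3 members on this list, Nalcn, Scn8a and Kcnt1, were not called. Of 51 neuronal and synaptic adhesion genes 1 rose (Sdk1, 1.25) and 16 fell (median -0.52). Of 66 axon guidance genes 2 rose (Sema5b, 1.38, and Ntn1, 1.13) and 26 fell (median -0.62). Among 32 cadherins and protocadherins outside the clusters, 4 rose (Cdh6, Cdh22, Fat3 and Dchs1) and 12 fell (median -0.30). Sialyltransferases had 2 of 18 higher (St8sia1, 1.80, and St6galnac3, 0.83) and 6 lower (median -0.33). In WT cells the medians of these 5 lists lay between -0.46 and -0.99 on the deposited scale.

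Other lists that mTOR inhibition might reach held no member. Of all genes tested, 2.45% were called higher and 45.7% lower per cell in KO cells, with a median of -0.72. Insulin receptor, PI3K and FoxO feedback genes had 1 of 30 higher (Klf15, 1.22) and 10 lower per cell in KO cells (median -0.42). Lysosome and autophagy genes had 2 of 45 higher (Ctsl, 0.77, and Ulk2, 0.85) and 13 lower (median -0.46). Receptor tyrosine kinases and their feedback inhibitors had 4 of 42 higher (Spry4, 1.26, Lrig2, 1.29, Alk and Spred3) and 19 lower (median -0.68). Quiescence genes and cell cycle inhibitors had 1 of 34 higher (Klf4, 1.06) and 13 lower (median -0.47). Histone demethylases and acetylation regulators had 0 of 38 higher by edgeR, by an unadjusted p under 0.05 or by DESeq2, and 9 lower (median -0.50).

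Markers of cell types these cultures could hold were counted the same way, again beside 2.45% of all genes called higher and 45.7% called lower (median -0.72). Of 16 pluripotency markers 1 rose and 8 fell per cell in KO cells (median -0.73). Their summed level was 5830 to 6745 CPM in WT FBS, 6922 to 7445 in WT paused, 3209 to 3762 in KO FBS and 3900 to 4249 in KO paused libraries, with Pou5f1 and Sox2 present in every group, as the labelled cell type requires. Of 13 neural markers tested, Sox1, Gsx1 (3.70) and Six3 (2.96) rose, Nes and Neurog1 fell and 8 were not called (median 0.31). In WT cells Gsx1 (-1.41), Six3 (-2.96) and Nes (-2.87) had lower paused than growing means on the deposited scale, and Sox1 was the only marker of this list in the set. The summed neural markers took 217 to 316 CPM in WT FBS, 349 to 399 in WT paused, 192 to 237 in KO FBS and 319 to 366 in KO paused libraries. Their part in the results for Sox1, Sox21 and the neuronal members was not tested. Formative and primed markers had 0 of 11 higher and 7 lower (median -1.29), with Zic2 the only member. The remaining lists held no member, and here and in the formative list no marker was higher in KO paused cells by edgeR, by an unadjusted p under 0.05 or by DESeq2: extraembryonic endoderm (10 of 14 lower), trophoblast (9 of 9 lower, median -3.26), fibroblast (8 of 11), mesoderm (3 of 6), germline (6 of 9) and two-cell-like markers, where only Eif1a could be tested (1 of 1). In WT paused cells their medians on the deposited scale lay between -1.09 and -2.82.

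Many members were long genes with a low level in growing WT cells. Their gene span had a median of 58.8 kb (quartiles 21.3 and 238), beside 24.7 kb (10.7 and 57.2) for the 11568 tested genes with a mean WT paused count of 30 or more that were matched to the annotation. A span of 100 kb or more was found for 28 members (40.6%), beside 13.2% of those genes. Cdh13 on chromosome 8 spans 1041 kb, Pard3b on chromosome 1 spans 1003 kb, Dpp6 on chromosome 5 spans 910 kb and Tenm1 on the X chromosome 901 kb, whereas Hoxc12 on chromosome 15 spans 1.85 kb. Members that rose per cell in KO cells had a median span of 35.8 kb, those that fell 44.1 kb and those not called 70.4 kb. In WT FBS cells the members' median level was 0.422 CPM per kb of exon, beside 6.05 for the comparison genes, and in WT paused cells 2.17, beside 6.1. This level in growing cells is one of the values the rule used. Their mean WT paused count had a median of 158, beside 381, and was under 100 for 27 members, so their differences carry more counting error than those of a typical tested gene. Protein-coding genes were 67 of the 69 (97.1%, beside 96.5%).

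**Figure D5:**
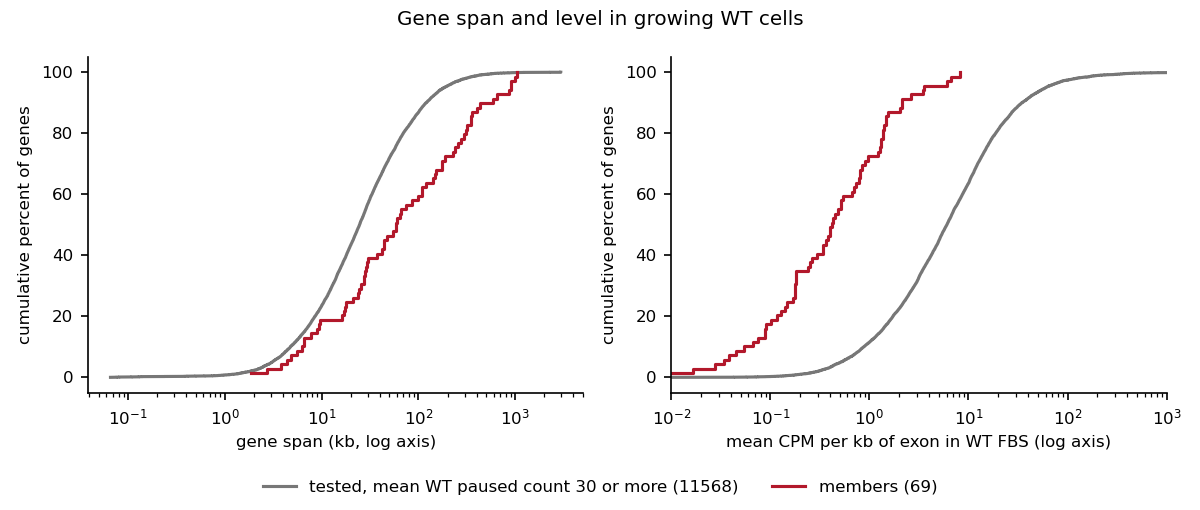
Cumulative percent of genes by gene span (left, kb, log axis) and by mean level in WT FBS cells (right, CPM per kb of exon, log axis) for the 69 members (red) and the 11568 comparison genes (grey). The members' curve lies to the right for span (median 58.8 against 24.7 kb) and to the left for level (median 0.422 against 6.05).

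The members lay on 18 chromosomes, with 8 each on chromosomes 1 and 11 and none on 12 or 16. On the X chromosome were 4 (Xpnpep2, Tenm1, Apln and Heph), which is 5.8% of the members beside 3.39% of the comparison genes. Of these, Xpnpep2, on few counts, and Heph were called lower per cell in KO cells, beside 45.7% of all genes. The comparison genes on the X chromosome had a median KO change per cell of -0.73. It was -0.68 for all tested genes with a mean WT paused count of 30 or more. The nearest neighbours were Apln and Xpnpep2, 0.0739 Mb apart, and Pla2g7 and Rcan2 on chromosome 17, 0.189 Mb apart. In KO cells Pla2g7 fell while Rcan2 was not called (0.82). Exons of 22 members overlap those of another annotated gene, over 19.5% of exon bases for Sned1 (with Mterf4 on the opposite strand), 18.8% for Sox21 and less for the others. Whether the counting used strand is not given in the sources used here. Reads in these stretches may belong to either gene.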

How the data were processed

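Per the labels' protocols, polyadenylated RNA of 200000 cells per library was spiked with ERCC RNAs after extraction and made into stranded libraries. The authors deposited raw read counts per gene symbol (24421 genes and 92 ERCC rows) and a table of log2 values normalized to cell number. For 14494 genes these deposited log2 values equalled log2(count + 0.5) plus 1 constant per library (largest SD 4.1e-10). Tools listed in the submitters' processing notes are Trim Galore 0.4.0, edgeR 3.32.1, Subread 1.5.0 and featureCounts, with the build mm10. Aligner, annotation and strand use in counting were not given in the sources used here.

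The deposited counts were fitted with edgeR 4.0.16 (R 4.3.3), robust quasi-likelihood, with 4 group means over all 12 libraries, after the default count filter (minimum count 10, total 15), which left 15281 genes. Benjamini-Hochberg adjustment ran over all of them, with a threshold of 0.05. Library size was the ERCC total times a TMM factor over ERCC rows for the per-cell scale, and the gene total times a TMM factor over genes for the relative scale. Genes of a library share the spike-in error, so per-cell calls are not independent of each other. Fold changes are log2 ± SE, and values as mean ± SD have n = 3. For members with few counts in KO cells the text gives exact conditional 95% intervals of the count ratio. The fit was tested on simulated counts. The alternatives were DESeq2 1.42.0 (size factors), no filter, only the KO libraries, the ERCC total alone, a replicate block, each replicate left out, and other thresholds of the rule.

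Positions are from GENCODE vM21 on GRCm38, matched for 24059 of 24421 gene rows, and for 68 members by symbol and 1 by synonym. Members, roles and gene lists (11 of function, 9 of cell type) were chosen with earlier results of these data known. The result of 1 list of function is not reported here. Genes named are the 12 highest WT differences, the 12 highest called and 12 lowest KO changes, the 8 highest levels per kb, 4 genes on each side of the threshold and members of a list. Other members are named in the sentence on their role, a choice made after their values were seen.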

Additional observations from a re-analysis of the deposited data

Results flagged for a closer look

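For 8 members every WT paused library lay above every WT FBS library, as the rule demands, while every KO paused library lay below every KO FBS library by the deposited log2 values. Of the 14494 genes, 31.7% had every KO paused library below every KO FBS library. The difference between the genotypes was not tested, since the WT values chose the members. Heph, the copper ferroxidase, had a mean difference of -3.35 between paused and growing KO cells and of 1.26 in WT cells. Xpnpep2, an aminopeptidase with 7 counts over the KO FBS and 1 over the KO paused libraries, stood at -2.11 in KO and 3.04 in WT cells. It passed the count filter only through the WT paused libraries. Ube2ql1, a conjugating enzyme, stood at -1.54 and 1.89, and the muscle methyltransferase Smyd1 at -1.28 and 1.46. Pla2g7 stood at -1.44 and 1.10, and Igfbp7 at -1.42 and 1.02. Dpp6, a potassium channel subunit, stood at -1.02 and 1.18, and the synaptic pentraxin Nptx1 at -0.62 and 1.39. Except for Nptx1, each was also called lower per cell in KO cells by edgeR, while on the relative scale Heph, Ube2ql1, Smyd1 and Igfbp7 were called lower and Xpnpep2, Pla2g7, Dpp6 and Nptx1 were not.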

How the results depend on the processing

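Under a threshold of 1.5 in place of 1 the rule gave 29 members, of which 7 rose and 2 fell per cell and 17 rose and 1 fell on the relative scale in KO cells. With a mean count of 100 or more it gave 42 members, of which 4 fell per cell and 1 on the relative scale. With only the 6 KO libraries in the fit 8 members fell on the relative scale. All other counts stayed within 1.5 times the values reported. DESeq2 called 15 members higher per cell, 14 of them among the 16, and 9 lower. Leaving out 1 KO library at a time gave 11 to 22 members higher and 7 to 10 lower per cell, with medians of 0.06 to 0.46. Choosing members without 1 WT library gave 60 to 100 genes. With values computed from the counts the rule gave 62 genes, 61 of them shared. Of 516 values of named members under alternatives, 486 stayed on their side of the threshold (4 of these, uncalled in both, changed sign), 18 lost and 12 gained a call, and 0 called values reversed.

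The deviations of same-numbered KO libraries correlated by 0.27, 0.0774 and 0.223, so the numbers do not establish pairing, although each library correlated best with its own number, a hint from the data and not from the design. With a replicate block 23 members rose and 9 fell per cell (median 0.23), and 41 rose and 5 fell on the relative scale. The 7 gained per cell were Adamts17, Crtac1 (0.77, adjusted p = 0.0125), Fam196b, Rcan2, Scn8a, St8sia2 and Trim36.

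Low counts limit the smallest members: 27 had a mean WT paused count under 100. The ERCC RNAs were added after extraction, so losses before that step are not corrected. The groups of 3 cannot go below p = 0.1 in an exact test.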
